A study of Mus musculus with 6 samples.

Results

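The TNF ligand and receptor superfamily was followed in skeletal muscle of mdx mice given anti-CD25 or rat IgG. Members were the genes with a Tnfsf or Tnfrsf number, together with Tnf, Lta, Ltb, Ltbr, Fas, Fasl, Cd27, Cd70, Cd40, Cd40lg, Eda, Edar and Ngfr, taken where a probe set carried that symbol alone. This gave 42 of the 19752 genes measured, 16 ligands and 26 receptors, each with 1 probe set. Tnfsf12, which encodes the ligand TWEAK, and its neighbour Tnfsf13 share a probe set that carries several symbols, so neither is reported and only the receptor of the TWEAK pair, Tnfrsf12a, could be followed.

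Ligands of this family are mostly trimeric membrane proteins that can be shed from the cell surface. Their receptors either carry a death domain, through which they can recruit caspase-8, or bind TRAF adaptors, through which they activate NF-kB, while decoy receptors bind a ligand without passing the signal on. In dystrophic muscle the family is known for TNF made by infiltrating myeloid cells, for TWEAK and its receptor Fn14 on injured fibres and muscle precursors, for RANK and osteoprotegerin, and for the costimulatory receptors of lymphocytes, several of which regulatory T cells carry.

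The study asked how dystrophic muscle differs once regulatory T cells are depleted. The tested group was 3 samples from mice that received anti-CD25 mAb (clone PC61), directed at the interleukin-2 receptor alpha chain, and the control was 3 samples from mice that received rat IgG. All 6 were mdx, a background without dystrophin, and each mouse had 2 intraperitoneal injections, at days 17 and 20 of age, of 100 mg as the design text writes it. That text places dissection 7 days after the second injection, whereas the sample labels state an age of 6 weeks. The labels name whole skeletal muscle and not which muscle, and they do not say whether replicates are separate animals, so the p-values cover sample-to-sample spread alone, some of which may be technical. In bulk muscle, fewer cells of a type and less RNA per cell cannot be told apart.

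The data are 6 Affymetrix arrays, 1 for each sample, and so few arrays bound the precision. Median intensities lay between 149.8 and 151.5 on the 6 arrays. All 12 markers of the muscle fibre lay above the upper quartile of every array. The labels call all animals male. Xist, the RNA of the inactive X chromosome, however lay between 11.77 and 11.94 log2 units on 4 arrays, anti-CD25 1 and 2 and rat IgG 1 and 2. It lay at 5.49 on anti-CD25 3 and 5.48 on rat IgG 3. The Y-linked genes Eif2s3y, Uty and Kdm5d lay at 3.47 to 3.77, 3.61 to 3.94 and 4.62 to 5.09 on those 4 arrays. On anti-CD25 3 they measured 9.22, 8.57 and 7.85, and on rat IgG 3 9.16, 8.77 and 7.80. By these genes those 4 samples read as female, against their label, and the other 2 as male. The arrays also fell into 2 kinds by their dim range, with a lower quartile of 51.2 to 51.9 on anti-CD25 1, anti-CD25 2 and rat IgG 3, and of 56.5 to 57.7 on anti-CD25 3, rat IgG 1 and rat IgG 2. Each group held arrays of both kinds in both respects. By lower quartile the groups were uneven, since anti-CD25 held most of the low arrays and rat IgG most of the high ones. Treatment and this kind thus cannot be fully told apart. Differences within each kind by Xist are given below for many of the genes named. A gene shown without them may still differ between the kinds. Rat IgG 3 correlated at 0.991 with both other rat IgG arrays across genes, which are not independent replicates.

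By limma, with p-values adjusted over all genes, no member was called at 0.05 or 0.1, nor was any other gene (0.0% called at either threshold). The smallest adjusted p over all genes, 0.750, was shared by the member Tnfsf10. It is a tie that extends to members with far larger unadjusted limma p, such as Tnfrsf12a at 0.129, and does not set Tnfsf10 apart. Of the 42 members, 31 were lower and 11 higher with anti-CD25, against 58.9% lower among all genes. Without adjustment, 3 members had a limma p under 0.05, all lower, which is 7.14% of members against 6.28% of all genes (3.98% lower and 2.3% higher). Over all genes that split was 786 lower to 454 higher, and with a second quantile normalization it was 675 to 628. Among members, 5 were lower without overlap between groups (7.46% of all genes) and 1 was higher without overlap (4.28%). These are small counts, and nothing particular to the members is read from them. Differences are given as anti-CD25 minus rat IgG, and their median was -0.057 log2 units over the members and -0.026 over all genes. A typical 95% interval extended over a difference plus or minus 0.23 log2 units. After a second quantile normalization the split was 25 lower and 17 higher, with a median of -0.015. Without rat IgG 3, 9 members had an unadjusted p under 0.05, 8 of them lower, which is 21.4% of members against 15.3% of all genes, and the median was -0.11. Without anti-CD25 1 only 1 member, Tnfsf10, had such a p, or 2.38% against 3.75% of all genes. The count thus grew and shrank over all genes as well.

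**Figure D1:**
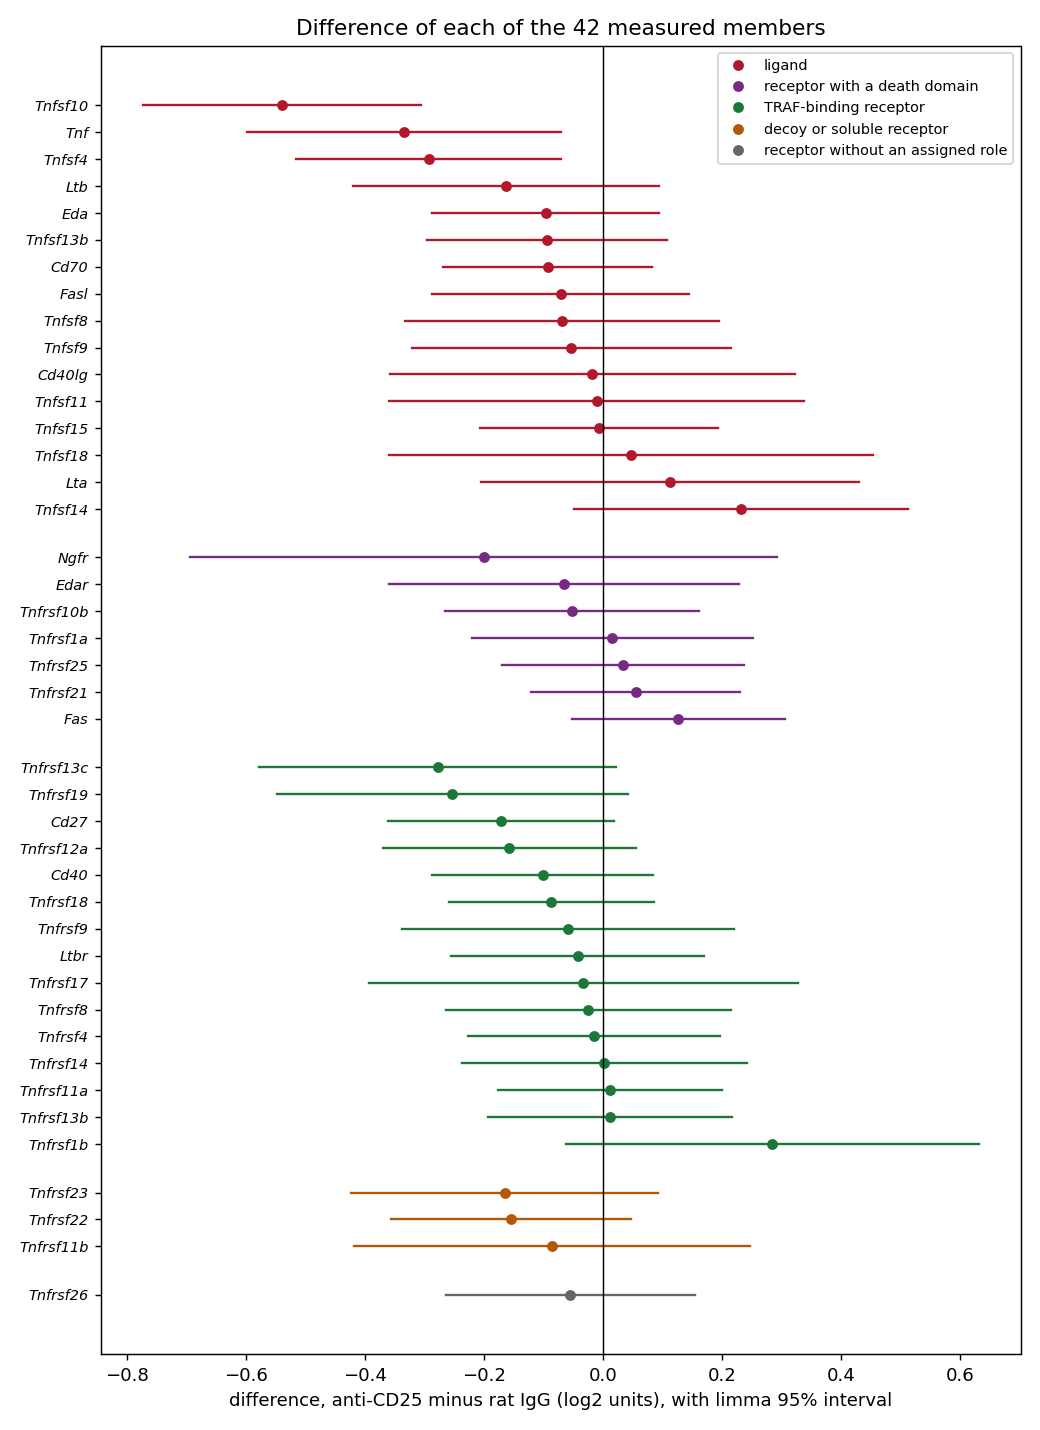
Difference between anti-CD25 and rat IgG in log2 units (x axis) for each of the 42 members (rows, by role), with limma's 95% interval as a line. The intervals of 39 members include 0, and Tnfsf10, Tnf and Tnfsf4 are the 3 that do not.

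Promoters of Tnfsf10 and Tnf, the ligands encoding TRAIL and TNF, are shown because these genes had the largest differences among the members. Both sequences are from RefSeq (GRCm38.p6) and cover 300 bases around the start of the gene. Capitals mark 2 patterns in the Tnf promoter, searched on both strands: GGG and CC with 5 bases between them, a loose form of the site that NF-kB binds, and TATAAA, the TATA box.
Tnfsf10, chr3:27316827-27317126, plus strand: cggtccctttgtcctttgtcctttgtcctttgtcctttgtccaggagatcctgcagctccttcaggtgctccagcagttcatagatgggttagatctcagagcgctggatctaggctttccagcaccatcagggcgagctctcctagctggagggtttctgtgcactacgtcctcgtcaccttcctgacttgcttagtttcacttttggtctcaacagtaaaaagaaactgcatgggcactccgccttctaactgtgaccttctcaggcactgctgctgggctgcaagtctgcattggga
Tnf, chr17:35201958-35202257, minus strand: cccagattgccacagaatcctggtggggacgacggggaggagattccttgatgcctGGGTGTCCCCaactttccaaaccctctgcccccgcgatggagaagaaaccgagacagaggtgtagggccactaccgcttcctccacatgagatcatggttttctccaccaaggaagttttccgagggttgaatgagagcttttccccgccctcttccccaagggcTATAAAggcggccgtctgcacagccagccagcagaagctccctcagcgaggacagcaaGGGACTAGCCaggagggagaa
The promoter table held 33 of the 42 members. The NF-kB pattern was present in 23 of these 33 and in 53.5% of all genes with a promoter, and TATAAA in 6 of 33 and 15.7%. A further pattern, GAAA repeated with 2 bases between, a form of the interferon response element, was present in 4 of 33 and 3.99%. Tnf held 2 matches to the NF-kB pattern and 1 to TATAAA, and Tnfsf10 held none of the 3 in this window. A match is a description of letters and not a site.

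The ligand with the largest difference was Tnfsf10, which encodes TRAIL, a ligand that can trigger apoptosis through death receptors. It measured 6.79, 6.85 and 7.07 log2 units on the anti-CD25 arrays, against 7.56, 7.41 and 7.35 on the rat IgG arrays. All anti-CD25 values lay below all rat IgG values. The means were 6.90 ± 0.15 with anti-CD25 and 7.44 ± 0.11 with rat IgG (SD, n = 3 each), a difference of -0.54 (SE 0.10, 95% interval -0.77 to -0.31), which is 0.688 of the rat IgG level. In limma the unadjusted p was 0.000562 and the adjusted p 0.750, so the difference did not pass. It was -0.67 in the 4 high-Xist arrays and -0.28 between the other 2, and it was -0.53 and -0.42 within the arrays of low and high lower quartile. With an array left out it ran from -0.62 to -0.48, and the adjusted p ran from 0.154 without rat IgG 3 to 0.9996 without rat IgG 2 over the alternatives tried for this gene. An exact permutation test, two-sided, gave p = 0.1, and 3 against 3 can go no lower.

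The receptors of TRAIL showed smaller differences than their ligand. Tnfrsf10b, the death receptor for TRAIL in mice, measured 7.78, 7.71 and 7.58 on the anti-CD25 arrays and 7.61, 7.81 and 7.81 on the rat IgG arrays. These values overlapped, with a difference of -0.052 (95% interval -0.26 to 0.16) that turned to 0.0025 without anti-CD25 3. It was 0.035 in the high-Xist arrays and -0.23 in the remaining pair. Tnfrsf22, a mouse decoy receptor for TRAIL, measured 8.13, 7.96 and 7.99 with anti-CD25 and 8.29, 8.14 and 8.11 with rat IgG, a difference of -0.15 (SE 0.089). Tnfrsf23, the other decoy, measured 8.63, 8.73 and 8.34 with anti-CD25 and 8.79, 8.62 and 8.78 with rat IgG, a difference of -0.17 (SE 0.11). Both decoys overlapped between groups, and the low value of Tnfrsf23 came from 1 array, anti-CD25 3, without which the difference was -0.051. Tnfrsf22 and Tnfrsf23 are neighbours on chromosome 7, next to Tnfrsf26, whose difference was -0.055. Tnfrsf11b, which encodes osteoprotegerin, a soluble receptor that binds RANKL and TRAIL, is described with the RANK genes.

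Tnf, the founding ligand, measured 6.30, 6.58 and 6.42 on the anti-CD25 arrays and 6.57, 6.93 and 6.81 on the rat IgG arrays. The groups overlapped by a narrow margin, through anti-CD25 2 and rat IgG 1. The means were 6.44 ± 0.14 with anti-CD25 and 6.77 ± 0.19 with rat IgG (SD, n = 3 each). The difference of -0.33 (SE 0.12, 95% interval -0.60 to -0.070) had an unadjusted limma p of 0.0188 and did not pass (adjusted p = 0.750). It was -0.31 in the high-Xist arrays and -0.39 between the other 2, and -0.37 and -0.33 within the arrays of low and high lower quartile.

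The receptors of TNF were not lower. Tnfrsf1a, the widely expressed receptor with a death domain, measured 9.81, 9.93 and 9.99 with anti-CD25 and 9.74, 9.88 and 10.07 with rat IgG. Its difference was 0.016 (95% interval -0.22 to 0.25), which turned to -0.0035 after a second quantile normalization and was 0.062 in the high-Xist arrays and -0.078 in the remaining pair. Tnfrsf1b, the receptor of leukocytes, which lacks a death domain, measured 9.53, 8.87 and 9.25 with anti-CD25 and 8.93, 8.83 and 9.03 with rat IgG. Anti-CD25 1 and 3 lay above all rat IgG arrays and anti-CD25 2 among them. The difference was 0.28 (SE 0.15, 95% interval -0.062 to 0.63), and 0.13 without anti-CD25 1. All 18 markers of monocytes and macrophages were higher with anti-CD25 as well, with a list mean of 0.40, -0.063 and 0.23 on anti-CD25 1, 2 and 3 and of -0.13, -0.46 and 0.026 on rat IgG 1, 2 and 3, in log2 units relative to the mean over the arrays. All 18 were higher in the high-Xist arrays, but in the low-Xist pair 13 were higher and 5 lower. The summed intensity of these markers ran from 21794 to 30631 with anti-CD25 and from 17614 to 22806 with rat IgG, with none of them below the lower quartile. Anti-CD25 1 was the highest array and rat IgG 2 the lowest in both Tnfrsf1b and this list. The part of these cells in the Tnfrsf1b value was not tested.

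**Figure D2:**
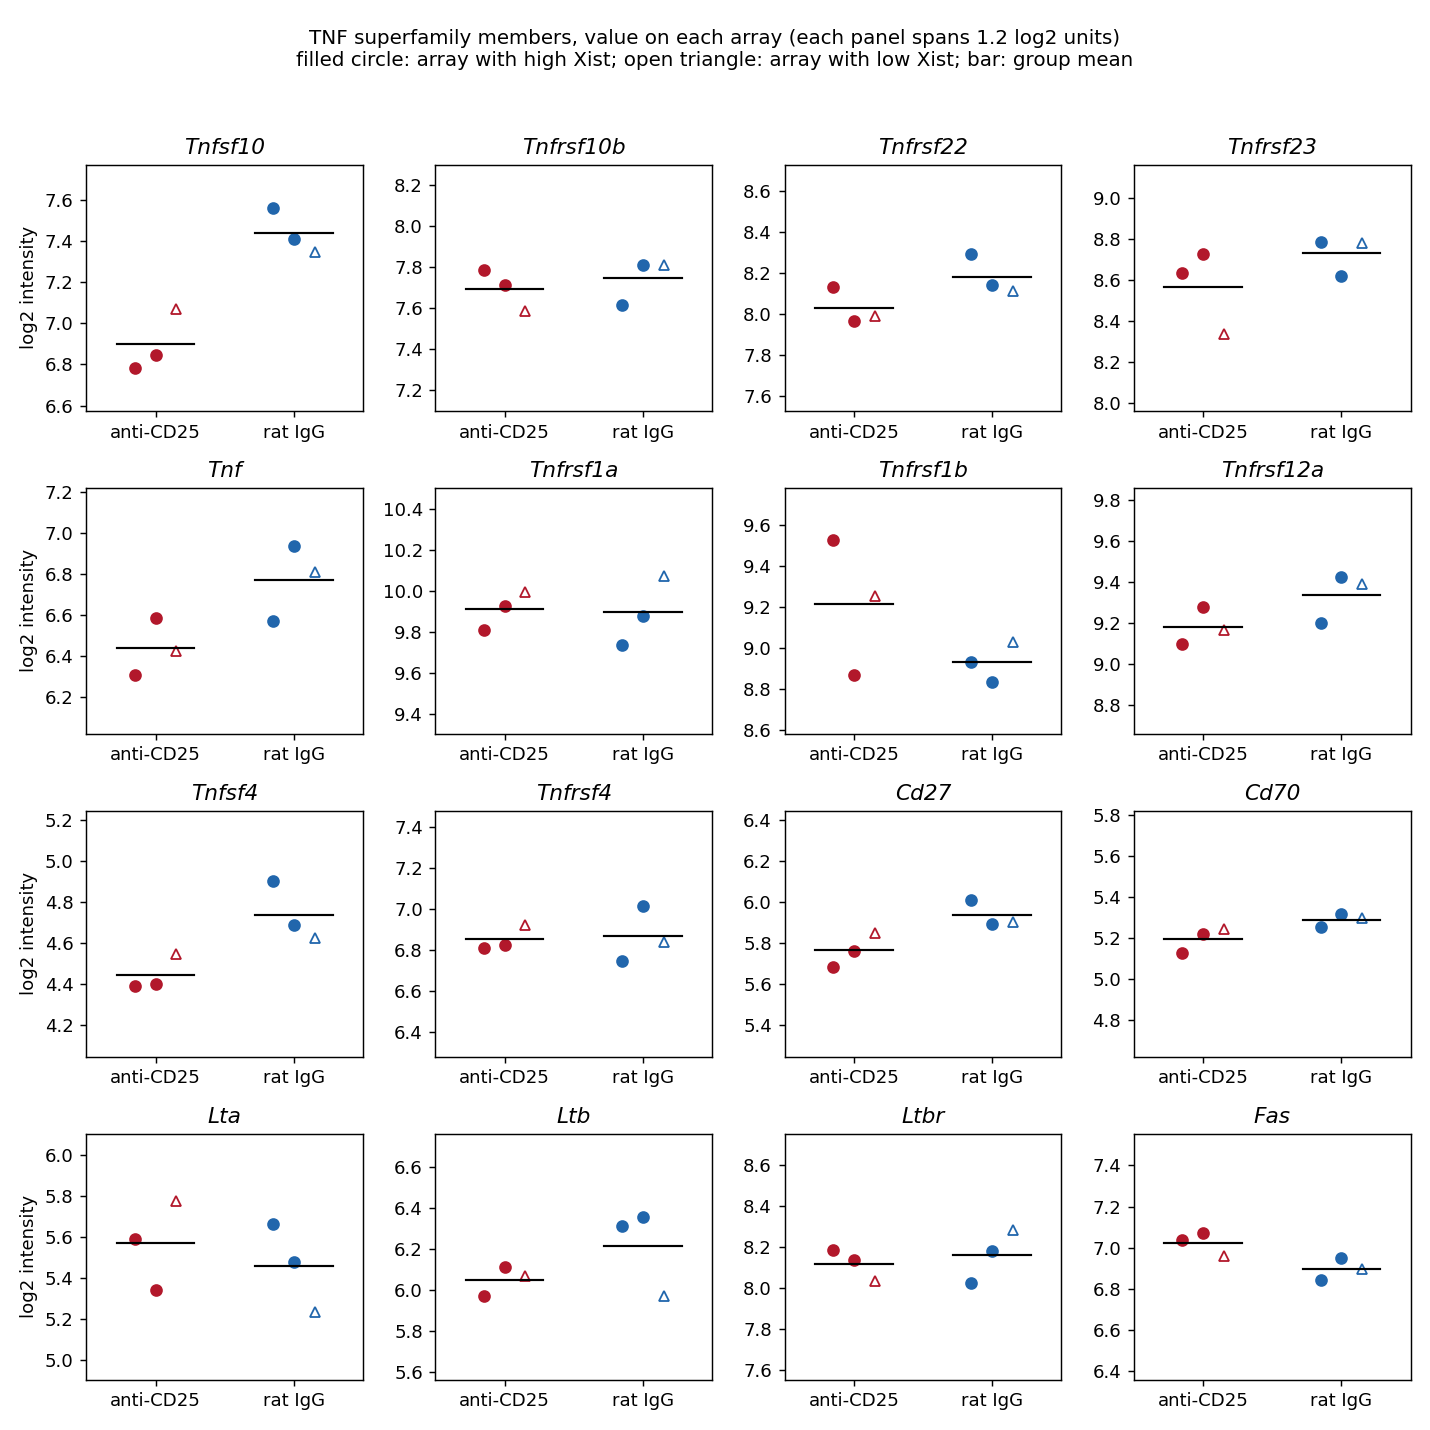
Log2 intensity (y axis) of 16 members on each array, anti-CD25 left and rat IgG right, with circles for arrays with high Xist, open triangles for low Xist and a bar for the group mean. Tnfsf10, Tnfsf4, Cd27 and Cd70 lie lower and Fas lies higher on every anti-CD25 array, whereas the groups overlap in the other 11 members drawn.

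Lta and Ltb, which encode the lymphotoxins that lymphocytes make, flank Tnf on chromosome 17 with no protein-coding gene between them, and the 3 neighbours differed in size and sign. Lta measured 5.59, 5.34 and 5.78 on the anti-CD25 arrays and 5.66, 5.48 and 5.23 on the rat IgG arrays. Its difference of 0.11 (95% interval -0.21 to 0.43) was -0.10 in the high-Xist arrays and 0.55 between the other 2. Ltb measured 5.97, 6.11 and 6.07 with anti-CD25 and 6.31, 6.36 and 5.97 with rat IgG. Rat IgG 1 and 2 lay above all anti-CD25 arrays and rat IgG 3 at their lower end, so that the difference of -0.16 (SE 0.11) was -0.28 without rat IgG 3. It was -0.29 in the high-Xist arrays, against 0.10 in the remaining pair. The receptor Ltbr differed by -0.043 (95% interval -0.25 to 0.17), a sign that turned to 0.0054 with array weights. Tnfsf14, which encodes LIGHT, another ligand of that receptor, measured 5.91, 5.96 and 6.10 with anti-CD25 and 6.02, 5.70 and 5.56 with rat IgG. It was 0.23 higher (SE 0.12, adjusted p = 0.750, limma), with 0.077 in the high-Xist arrays and 0.54 between the other 2.

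Costimulatory members act between antigen-presenting cells and T cells. Tnfsf4, the OX40 ligand, measured 4.39, 4.40 and 4.55 on the anti-CD25 arrays and 4.90, 4.69 and 4.63 on the rat IgG arrays. All anti-CD25 values lay below all rat IgG values, with a difference of -0.29 (SE 0.098), an unadjusted limma p of 0.0156 and an adjusted p of 0.750. It lies among the 30% of genes with the lowest mean intensity, whose median difference was -0.080, with -0.40 in the high-Xist arrays and -0.080 in the remaining pair. Its receptor Tnfrsf4 (OX40) differed by -0.015 (95% interval -0.23 to 0.20), a sign that turned to 0.016 after a second quantile normalization.

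Cd27, a receptor of T cells, measured 5.68, 5.76 and 5.85 with anti-CD25 and 6.01, 5.89 and 5.90 with rat IgG, a difference of -0.17 (SE 0.084). Its ligand Cd70 measured 5.13, 5.22 and 5.24 with anti-CD25 and 5.26, 5.32 and 5.30 with rat IgG, a difference of -0.093 (SE 0.078). Both genes were lower on every anti-CD25 array, both are among the 30% dimmest, and neither passed the test (adjusted p = 0.750 for Cd27 and 0.801 for Cd70, limma). Cd40, the receptor through which T cells activate myeloid and B cells, measured 7.28, 7.13 and 7.26 with anti-CD25 and 7.30, 7.38 and 7.29 with rat IgG. It too was lower on every anti-CD25 array, by -0.10 (SE 0.082), and its ligand Cd40lg differed by -0.018 (95% interval -0.36 to 0.32), with the sign turned to 0.075 after a second quantile normalization.

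Tnfrsf18 (GITR) and Tnfrsf9 (4-1BB) are carried by regulatory and activated T cells. Tnfrsf18 measured 6.30, 6.29 and 6.34 with anti-CD25 and 6.42, 6.43 and 6.34 with rat IgG, a difference of -0.087 (95% interval -0.26 to 0.086) that was -0.13 in the high-Xist arrays and 0.0010 in the remaining pair. Tnfrsf9 measured 6.60, 6.75 and 6.86 with anti-CD25 and 6.85, 6.98 and 6.56 with rat IgG, a difference of -0.059 (95% interval -0.34 to 0.22) that was -0.24 in the high-Xist arrays and 0.31 between the other 2. Beside them, 9 of 10 regulatory T cell markers were lower with anti-CD25, with a median of -0.10, but in the low-Xist pair 5 were lower and 5 higher. The summed intensity of these markers ran from 1080 to 1119 with anti-CD25 and from 1163 to 1231 with rat IgG, so the sums did not overlap. Such sums are weighted to bright genes, most to Lrrc32, the brightest of the 10, with means of 8.31 with anti-CD25 and 8.55 with rat IgG. Among the 10, 3 averaged below the lower quartile of every array, Il2ra, Ctla4 and Il10. Foxp3 itself differed by -0.092 (SE 0.099), with -0.23 in the high-Xist arrays and 0.18 in the remaining pair. Il2ra, which encodes the target of the antibody, counts among the 9 at only -0.0049 (95% interval -0.22 to 0.21). None of the 10 passed the test. Of 12 measured T cell markers 8 were lower and 4 higher, with a median of -0.085. The summed intensity of these 12 was nevertheless higher, at 1577 to 1665 with anti-CD25 and 1523 to 1568 with rat IgG. That came from Il7r, with means of 8.36 with anti-CD25 and 7.53 with rat IgG, a difference of 0.83 (limma adjusted p = 0.750). The further higher markers, Cd2, Cd28 and Cd3d, differed by 0.16, 0.071 and 0.0063. The higher sum is therefore not read as more T cell RNA. The part of regulatory and other T cells in the receptor values was not tested.

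B cell members differed most in Tnfrsf13c, the receptor for the survival factor BAFF. It measured 7.25, 7.10 and 7.33 with anti-CD25 and 7.63, 7.67 and 7.20 with rat IgG. Rat IgG 3 lay among the anti-CD25 arrays, so the difference of -0.28 (SE 0.13, adjusted p = 0.750, limma) was -0.43 without that array and -0.48 among the arrays with high Xist, against 0.12 between the other 2. Tnfsf13b, which encodes BAFF, differed by -0.094, and the further receptors Tnfrsf13b and Tnfrsf17 by 0.012 and -0.033. Without rat IgG 3 these differences were -0.16 for Tnfsf13b, -0.061 for Tnfrsf13b and -0.23 for Tnfrsf17. Of 9 measured markers of B and plasma cells, 6 were lower and 3 higher. Their summed intensity was 918 to 1035 with anti-CD25 and 928 to 1006 with rat IgG, ranges that overlap. Among the 9, 1 was lower without overlap, or 11.1% against 7.46% of all genes. This was Cd79a, one of the 30% dimmest genes, at -0.42 (SE 0.12, limma adjusted p = 0.750), with -0.42 in both kinds by Xist.

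Among members tied to muscle injury and matrix, Tnfrsf12a, which encodes Fn14, the receptor for TWEAK, measured 9.10, 9.28 and 9.17 on the anti-CD25 arrays and 9.20, 9.42 and 9.39 on the rat IgG arrays. Only anti-CD25 2 reached into the rat IgG range. The difference of -0.16 (SE 0.094, 95% interval -0.37 to 0.055) did not pass (adjusted p = 0.750, limma) and stood at -0.12 in the high-Xist arrays and -0.22 between the other 2. Tnfrsf19 (TROY), a receptor known from skin and neural tissue, measured 7.77, 7.94 and 7.47 with anti-CD25 and 8.01, 8.10 and 7.83 with rat IgG, a difference of -0.25 (SE 0.13) that was -0.12 without anti-CD25 3.

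The RANK genes had differences near 0. Tnfrsf11a, which encodes RANK, differed by 0.011 (95% interval -0.18 to 0.20). Its ligand Tnfsf11 measured 7.20, 7.17 and 7.43 with anti-CD25 and 7.44, 7.48 and 6.91 with rat IgG. Tnfsf11 thus differed by -0.011 overall (95% interval -0.36 to 0.34), by -0.28 in the high-Xist arrays and by 0.52 in the remaining pair. Tnfrsf11b measured 7.74, 7.93 and 7.78 with anti-CD25 and 7.79, 7.66 and 8.25 with rat IgG. Rat IgG 3 was its highest array, and the difference of -0.086 turned to 0.090 without it.

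Of the Fas pair, the death receptor Fas measured 7.03, 7.07 and 6.96 with anti-CD25 and 6.84, 6.95 and 6.90 with rat IgG. It was the 1 member higher on every anti-CD25 array, by 0.13 (SE 0.079, adjusted p = 0.756, limma). Fasl, the ligand that cytotoxic cells carry, measured 5.09, 5.14 and 5.36 with anti-CD25 and 5.33, 5.21 and 5.25 with rat IgG, a difference of -0.071 (95% interval -0.29 to 0.14). Fasl is among the 30% dimmest genes, and 6 of 10 markers of NK and cytotoxic cells averaged below the lower quartile of every array.

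By role, 13 of 16 ligands were lower (81.2%) with a median of -0.070, and 10 of the 16 were among the 30% dimmest genes. Of all genes 58.9% were lower, and of the 30% dimmest 76.6%, so nothing particular to a role is read from these counts. Of 7 receptors with a death domain 3 were lower (median 0.016), of 15 that bind TRAF adaptors 11 were lower (median -0.043), and all 3 decoy or soluble receptors were lower (median -0.15). The 28 members above the 30th percentile of intensity had a median of -0.076, against -0.0037 for all genes above it, and the 14 dimmer members had -0.043, against -0.080 for all dimmer genes. The members not yet described, which are Eda, Edar, Ngfr, Tnfrsf8, Tnfrsf14, Tnfrsf21, Tnfrsf25, Tnfsf8, Tnfsf9, Tnfsf15 and Tnfsf18, overlapped between the groups, with differences from -0.20 for Ngfr to 0.055 for Tnfrsf21. Ngfr, the low-affinity neurotrophin receptor of Schwann cells, measured 8.02, 8.08 and 7.95 with anti-CD25 and 8.43, 8.60 and 7.62 with rat IgG, so that rat IgG 3 was the lowest and the other rat IgG arrays the highest of all. Without rat IgG 3 its difference was -0.50, which did not pass either (adjusted p = 0.154, limma), and it was -0.46 in the high-Xist arrays and 0.33 in the remaining pair. All 5 measured Schwann cell markers were likewise lower in the high-Xist arrays and higher in the remaining pair. The mean of that list differed by -0.25 and 0.12. The part of Schwann cells in the Ngfr value was not tested. Tnfsf18, the ligand of GITR, measured 5.40, 5.28 and 5.60 with anti-CD25 and 5.25, 5.07 and 5.81 with rat IgG. Its difference of 0.047 was 0.26 without rat IgG 3, its highest array, and -0.11 without rat IgG 2, its lowest.

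The sign of a difference was compared between the 2 kinds of array by Xist. Of 42 members, 16 had the same sign in the 4 high-Xist arrays and in the low-Xist pair, and 26 had opposite signs, or 61.9% against 56.9% of all genes. In a limma fit with an interaction of treatment and Xist kind, 0 members passed at an adjusted p of 0.05 (0.0405% of all genes did, and the smallest adjusted p of a member was 0.0586, for Tnfsf11) and 11 had an unadjusted p under 0.05, or 26.2% against 19.4% of all genes. The low kind holds 1 array per group, rat IgG 3 among them. Some of those 11 had no split given above. In the high-Xist arrays and the low-Xist pair, Edar differed by -0.28 and 0.36, and Tnfsf9 by 0.14 and -0.43. Tnfrsf11b differed by 0.11 and -0.48, and Tnfrsf17 by -0.20 and 0.31. Tnfrsf8 differed by -0.16 and 0.24, and Tnfrsf23 by -0.025 and -0.45. Tnfsf10, Tnf, Tnfsf4, Cd27, Cd40, Cd70, Tnfrsf12a, Tnfrsf22, Tnfrsf23, Eda and Tnfsf8 were lower, and Fas, Tnfrsf1b and Tnfsf14 higher, within both kinds by Xist and both kinds by lower quartile. These 14 are 33.3% of members, against 31.9% of all genes.

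**Figure D3:**
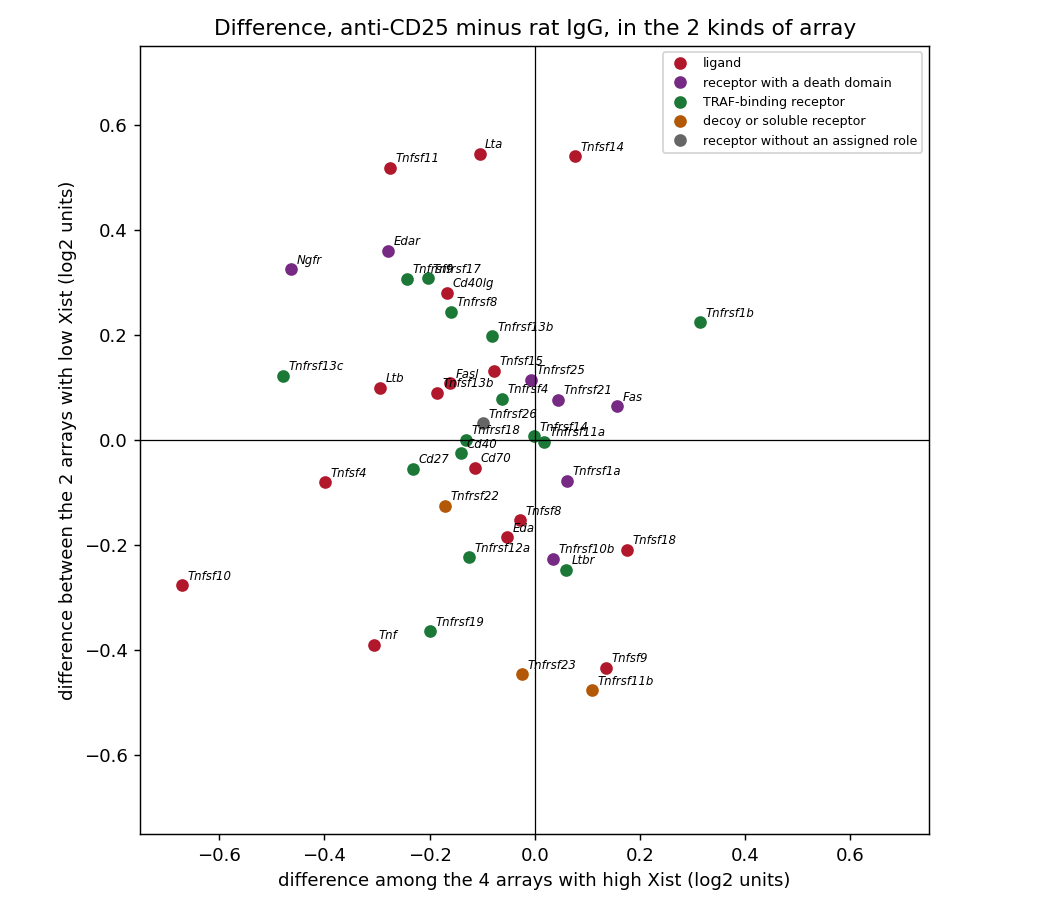
Difference, anti-CD25 minus rat IgG, among the 4 arrays with high Xist (x axis) and between the 2 arrays with low Xist (y axis), in log2 units, 1 point per member coloured by role. Points at the upper left and lower right are the 26 members whose signs differ, and Tnfsf10 lies farthest left at -0.67 and -0.28.

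Signal carriers below the receptors were followed in 4 lists with 53 of 60 genes measured, of which 27 were lower and 26 higher with a median of -0.00029, and none passed at an adjusted p of 0.05. Without adjustment 2 had a limma p under 0.05 and were lower, and 1 was higher. That is 5.66% of the 53, against 6.28% of all genes. Without overlap between groups, 6 were lower (11.3% against 7.46% of all genes) and 3 higher (5.66% against 4.28%). Nothing particular to these lists is read from these counts. Tnfaip3, which encodes A20, the enzyme that switches off NF-kB signalling and is itself an NF-kB target, measured 7.26, 7.05 and 7.19 with anti-CD25 and 7.47, 7.54 and 7.44 with rat IgG. All anti-CD25 values were lower, by -0.32 (SE 0.086, limma adjusted p = 0.750). Relb, a subunit of the alternative NF-kB pathway, measured 7.45, 7.28 and 7.38 with anti-CD25 and 7.50, 7.68 and 7.63 with rat IgG, a difference of -0.24 (SE 0.088) without overlap. Traf2, an adaptor of the TNF receptors, differed by -0.17 (SE 0.079), and Edaradd, the adaptor of the ectodysplasin receptor, by -0.23 (SE 0.11), with -0.36 in the high-Xist arrays and 0.032 in the remaining pair. In the NF-kB feedback list the signs were mixed, with 6 of 13 lower, and in the list of TRAF adaptors and NF-kB subunits 13 of 20 were lower.

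Among genes of death signalling, Casp8, the caspase that death receptors recruit, measured 10.40, 10.21 and 10.40 on the anti-CD25 arrays and 10.02, 9.91 and 10.11 on the rat IgG arrays. All anti-CD25 values were higher, by 0.32 (SE 0.092, limma adjusted p = 0.750). Of 14 measured genes of the death list 9 were higher, with a median of 0.099, but in the low-Xist pair 4 were higher and 10 lower. Adam10, a sheddase, differed by 0.20 (SE 0.089), and Adam17, the enzyme that releases TNF from the membrane and was chosen here after its values were seen, by 0.18 (SE 0.088). Both sheddases were higher on every anti-CD25 array, among 6 genes of that list of which 3 were higher. That is 33.3% of the list higher without overlap, against 4.28% of all genes. Neither sheddase passed (adjusted p = 0.750, limma), and nothing particular to so short a list is read from this count. The macrophage markers given above were higher too, though 5 of the 18 were lower in the low-Xist pair. The part of macrophages in these values was not tested.

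Other cell types that carry TRAIL were followed through their markers. Endothelial cells had 9 of 12 markers lower, with a median of -0.026 and summed intensities of 9009 to 9523 with anti-CD25 and 9165 to 10261 with rat IgG. None of the 12 lay below the lower quartile. Among the 12, 3 were lower without overlap, where 7.46% of all genes were, and the mean difference of the list was -0.14. Bcl6b, a transcriptional repressor of endothelial cells, measured 8.19, 8.01 and 7.78 with anti-CD25 and 8.54, 8.94 and 8.75 with rat IgG, a difference of -0.75 (SE 0.13, limma adjusted p = 0.750). Egfl7 and Cldn5 were lower without overlap by -0.25 and -0.24, Kdr differed by -0.27, and Pecam1 and Cdh5 differed by 0.022 and 0.00047. The list mean was -0.063, -0.024 and -0.13 on anti-CD25 1, 2 and 3 and -0.0048, 0.16 and 0.061 on rat IgG 1, 2 and 3. NK and cytotoxic markers were lower in 5 of 10, with sums of 491 to 552 with anti-CD25 and 477 to 572 with rat IgG. Immediate early and heat shock genes had their highest list mean, 0.52, on rat IgG 3 and their lowest, -0.28, on rat IgG 1. Tnfsf10 measured 7.56, 7.41 and 7.35 on rat IgG 1, 2 and 3. The part of these cells and of handling in the member values was not tested.

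**Figure D4:**
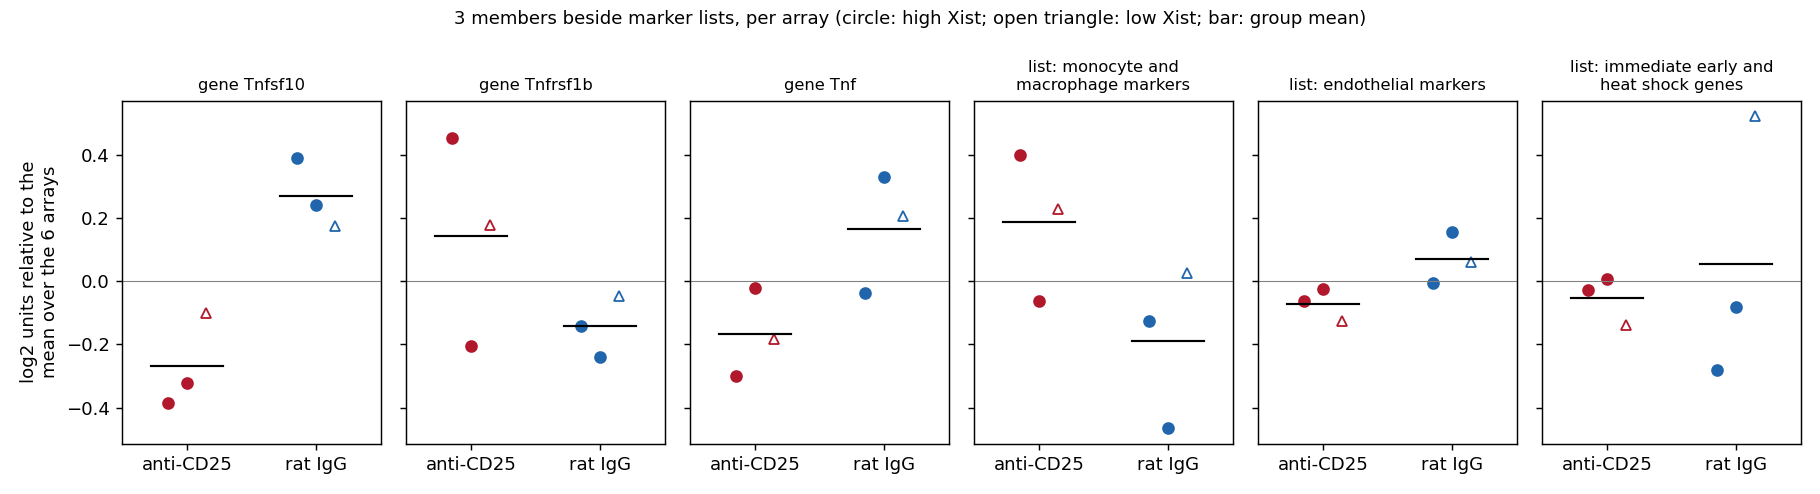
Tnfsf10, Tnfrsf1b and Tnf beside the means of 3 gene lists, in log2 units relative to the mean over the 6 arrays (y axis), anti-CD25 left and rat IgG right, with circles for high Xist, open triangles for low Xist and a bar for the group mean. Tnfrsf1b and the macrophage list are highest on anti-CD25 1, and the immediate early list stands at 0.52 on rat IgG 3.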

How the data were processed

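Expression was measured on 6 arrays, 1 per sample. The authors deposited 1 table with the intensity of 24922 probe sets on a linear scale. The submitters' processing notes name Affymetrix Power Tools and RMA, a method of background correction, quantile normalization and probe set summary. Their versions were not given in the sources used here. RMA draws dim probe sets together, which understates their differences. Of the probe sets, 21425 carried 1 gene symbol in the platform annotation, 1399 several (not used) and 2098 were not listed. Log2 was taken with no pseudocount, the probe set with the highest mean stood for a gene, and 19752 genes were fitted with limma 3.58.1 in R 4.3.3 (lmFit and eBayes, two-sided, group as the only term) and adjusted by Benjamini-Hochberg over all of them. Intervals are limma's moderated 95% intervals. The fit was tested on simulated data.

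Members, gene lists and named genes were chosen with earlier results of these data known. Named in full were 22 genes by name, 21 of them measured, the 8 members and the 6 signalling genes with the smallest unadjusted p; other members are given by range, and those singled out beyond the rule were chosen after their values were seen. The number in the titles was not used to pair samples in the main fit, though number 3 was the low-Xist sample in both groups.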

Additional observations from a re-analysis of the deposited data

How the results depend on the processing

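No member and no signalling gene was called under any of the alternatives run, and over all genes the count was 0 except without rat IgG 3, where it was 7, none of them a member. With 1 array left out, the count over all genes ran from 0 to 7, that of members with an unadjusted p under 0.05 from 1 to 9, and the members' median from -0.11 to -0.041. That count of members, 3 as reported, was 6 with array weights, 5 with the lower quartile of the arrays as a block (added after seeing the data) and 0 above the 50th percentile of intensity, where 16 members remain and Tnfsf10 does not. Over all 19752 genes, 786 lower and 454 higher had an unadjusted p under 0.05 as reported. These counts were 1410 and 844 with array weights and 929 and 490 with the lower quartile block. They were 306 and 473 above the 50th percentile, and ran from 477 and 186 without rat IgG 2 to 1887 and 1143 without rat IgG 3. The members' split was 25 lower to 17 higher after a second quantile normalization and with the lower quartile block. Samples with the same number did not deviate together (correlations 0.030, -0.0067 and -0.17), which with 3 arrays per group cannot exclude a pairing. With the replicate block, 4 members had an unadjusted p under 0.05, beside 572 lower and 533 higher over all genes. With that block 0 members were called, and their median stayed at -0.057. Of 32 named genes, 22 kept their sign in every tested alternative, Tnfsf10, Tnf and Tnfsf4 among them. After a second quantile normalization Tnfrsf1a turned to -0.0035, Tnfrsf4 to 0.016 and Cd40lg to 0.075, and with array weights Ltbr to 0.0054. With the lower quartile block Tnfrsf1a turned to -0.0076, Tnfsf11 to 0.12, Tnfrsf4 to 0.0083, Tnfrsf9 to 0.032 and Cd40lg to 0.057. With 1 array left out the ranges were -0.12 to 0.0025 for Tnfrsf10b, -0.064 to 0.10 for Tnfrsf1a, -0.0011 to 0.23 for Lta, -0.11 to 0.017 for Ltbr, -0.19 to 0.092 for Tnfsf11, -0.026 to 0.057 for Tnfrsf11a, -0.21 to 0.090 for Tnfrsf11b, -0.076 to 0.059 for Tnfrsf4, -0.18 to 0.035 for Tnfrsf9 and -0.14 to 0.12 for Cd40lg. The cause of these turns was not tested. The number of arrays and the dim range, where RMA understates differences, limit what can be read from the 14 members among the 30% dimmest genes.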
